A study of Mus musculus with 6 samples.

Results

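The NMDA receptor subunit genes were examined in the hippocampus of mice with a knockout of Ahr, the aryl hydrocarbon receptor gene. The family has 7 genes, Grin1, Grin2a, Grin2b, Grin2c, Grin2d, Grin3a and Grin3b. A gene was measured through the probe sets that the platform annotation pairs with that symbol alone, and the brightest probe set stood for the gene. This gave 6 of the 7 subunits, through 9 probe sets, among 22180 genes tested. No probe set carried the name Grin1, alone or with other genes, so the obligatory subunit is not analysed here.

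The arrays hold total RNA of hippocampi dissected from hemibrains of 3 Ahr-KO mice and 3 wild-type mice, with 1 array per mouse. Ahr encodes a ligand-activated transcription factor, and the labels name the knockout genotype only as Ahr-KO. They give neither the part of the gene that is missing, nor the strain, sex, age or breeding of the mice. The stated design is a plain comparison of the genotypes in this tissue, on 3 independent RNA preparations each.

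NMDA receptors built from GluN1 and GluN2 subunits are glutamate-gated channels. They open only when glutamate and a co-agonist, glycine or D-serine, are bound and depolarisation has expelled a magnesium ion from the pore. The calcium that then enters starts the lasting changes of synaptic strength studied in the hippocampus as a cellular form of memory. Each channel is a tetramer that always contains GluN1 (Grin1), completed by GluN2 or GluN3 subunits. The GluN2 subunit sets the kinetics, magnesium block and cytoplasmic partners. In the forebrain GluN2B prevails early in life and GluN2A rises after birth.

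Promoter windows of 4 subunits were held in the RefSeq table used here (GRCm38.p6), each running from 250 bases before to 50 bases after an annotated start. They were searched on both strands for GCGTG, the core of the element that the aryl hydrocarbon receptor binds with ARNT. That core was chosen because the gene of this receptor is the one knocked out. Of the 3 measured subunits with a window, Grin3b held 1 copy and Grin2c and Grin2d held 0. The Grin1 window held 1 copy, starting 98 bases before the start. The core occurred in 32.4% of all 32851 windows, so a single copy is common. Grin2c, the subunit with the largest genotype difference among those measured, and Grin3b, the measured one with a core, are printed 5′ to 3′, with the core in capitals. The windows lie on chr11:115267194-115267493 (minus strand) and chr10:79970474-79970773 (plus strand).
Grin2c: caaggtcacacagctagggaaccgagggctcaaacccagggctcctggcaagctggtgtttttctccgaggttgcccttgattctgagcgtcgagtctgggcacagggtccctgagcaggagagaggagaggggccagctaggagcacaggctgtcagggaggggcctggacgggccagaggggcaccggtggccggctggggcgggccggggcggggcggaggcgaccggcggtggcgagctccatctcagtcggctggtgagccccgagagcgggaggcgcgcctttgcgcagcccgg
Grin3b: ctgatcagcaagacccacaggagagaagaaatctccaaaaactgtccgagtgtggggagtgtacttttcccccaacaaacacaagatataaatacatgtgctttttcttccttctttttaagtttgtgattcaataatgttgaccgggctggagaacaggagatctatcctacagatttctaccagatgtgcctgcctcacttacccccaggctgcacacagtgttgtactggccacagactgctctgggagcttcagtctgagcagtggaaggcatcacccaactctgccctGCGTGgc
The Grin3b core started 43 bases after the annotated start. The windows also differed in composition, with 70.0% G and C and 22 CpG dinucleotides for Grin2c against 48.3% and 3 for Grin3b, where the medians over all windows were 52.7% and 7. These matches describe letters only, and binding was not measured.

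Ahr itself was lower on all 3 Ahr-KO arrays (6.62 to 6.91 log2) than on all 3 wild-type arrays (7.44 to 7.68). The difference was -0.78 ± 0.10 (SE; limma unadjusted p = 4.3e-05, rank 3 of 22180 genes, adjusted p = 0.320). Signal remained in Ahr-KO, at 0.581 of wild type, with a mean of 6.76 log2 above the median gene level. All 10 pan-neuronal markers, 7 of 8 dentate granule markers and 8 of 8 CA pyramidal markers averaged above the median gene level of 6.50 log2. Of 5 measured thalamus and striatum markers only 2 lay below it, so this level alone does not single out the labelled tissue. Ttr, a gene of the choroid plexus, was high on Ahr-KO array 1 (13.15 log2) and on wild-type array 2 (12.64), and lay between 8.64 and 9.06 elsewhere. Each subunit's difference is also given without those 2 arrays. No gene of the 22180 passed an adjusted p of 0.05 with limma (0%). At an unadjusted p under 0.05, 6.18% did, with 3.53% higher and 2.65% lower in Ahr-KO, and the arrays of the genotypes did not overlap in 11.9% (6.18% higher and 5.75% lower in Ahr-KO).

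No NMDA receptor subunit passed a threshold in the comparison of Ahr-KO with wild type. Of the 6 measured, 0 passed an adjusted p of 0.05 (limma) and 0 an unadjusted p of 0.05, beside 0% and 6.18% of all genes. Means were higher in Ahr-KO for Grin2a and Grin2b and lower for Grin2c, Grin2d, Grin3a and Grin3b. The median difference was -0.07 log2, beside 0.0019 over all genes. The arrays did not overlap for Grin2b (higher in Ahr-KO) and Grin3a (lower), which is 2 of 6 subunits, beside 11.9% of all genes (6.18% higher, 5.75% lower). An exact two-sided permutation test of 3 against 3 arrays cannot go below p = 0.1, so none is given.

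**Figure D1:**
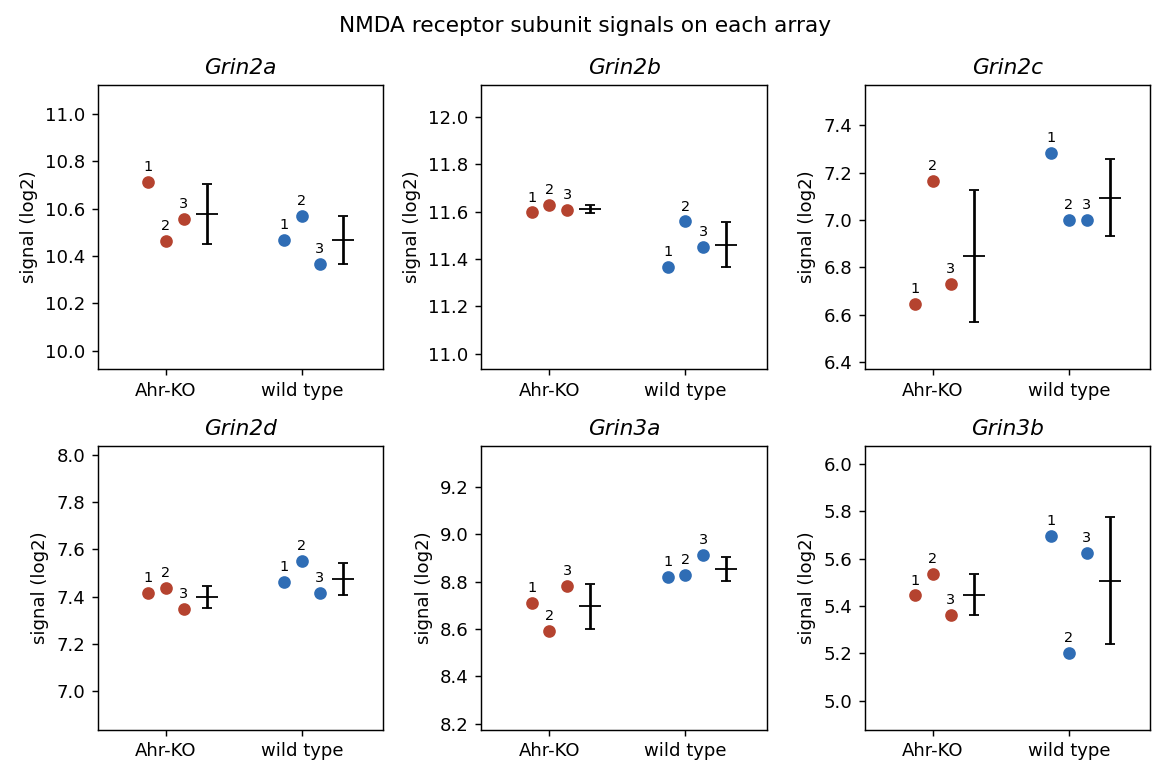
Log2 signal of the 6 measured subunits on each array, Ahr-KO on the left and wild type on the right of each panel. Points are arrays with their mouse number and bars are the mean ± SD (n = 3), and all panels span the same range around their own mean. The Grin2b and Grin3a arrays separate by genotype, and the other 4 subunits overlap.

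Grin2a and Grin2b encode GluN2A and GluN2B, the main GluN2 subunits of adult forebrain. Grin2b read 11.60, 11.63 and 11.61 log2 on the Ahr-KO arrays, against 11.37, 11.56 and 11.45 on the wild-type arrays. All 3 Ahr-KO values lay above the highest wild-type value, and they were closer together (SD 0.02) than the wild-type values (SD 0.10). The difference was 0.15 ± 0.08 (SE; 95% interval -0.02 to 0.33), a 1.11-fold higher mean with an interval of 0.983 to 1.25 (limma unadjusted p = 0.0833, adjusted p = 0.817). Its unadjusted p was 0.0200 where the variance prior followed signal intensity and 0.0434 without wild-type array 2, both with adjusted p above the threshold (0.745 and 0.801). With single arrays left out, the Grin2b difference ran from 0.11 without wild-type array 1 (limma unadjusted p = 0.225) to 0.20 without wild-type array 2. A dim second probe set of Grin2b (mean 5.37 log2) differed by 0.03 ± 0.09 (SE), and the mean of both by 0.09. Without both arrays with high Ttr the Grin2b difference was 0.21 (unadjusted p = 0.0719).

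Markers of dentate granule neurons were set beside Grin2b. Their mean centred level was 0.04, 0.02 and 0.11 on Ahr-KO arrays 1 to 3, against -0.18, 0.05 and -0.04 on wild-type arrays 1 to 3. The order of the wild-type arrays was that of Grin2b, while among Ahr-KO arrays Grin2b was highest on array 2, where the markers were lowest. Of these 8 markers 3 were higher and 0 lower at an unadjusted p under 0.05, beside 3.53% and 2.65% of all genes, and the differences ran from -0.15 (Tdo2) to 0.28 (Prox1). The mean centred level differed between genotypes by 0.11 for these markers, 0.02 for CA pyramidal markers and -0.02 for pan-neuronal markers. Of the CA pyramidal and pan-neuronal markers, 0 were at an unadjusted p under 0.05, beside 6.18% of all genes. The part of the dentate marker difference in the Grin2b difference was not tested. In bulk RNA, more cells of a type and more RNA per cell cannot be told apart.

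Grin2a read 10.71, 10.46 and 10.56 log2 in Ahr-KO, against 10.47, 10.57 and 10.37 in wild type. The genotypes overlapped, with Ahr-KO array 2 below 2 of the wild-type arrays. The difference was 0.11 ± 0.09 (SE; 95% interval -0.10 to 0.32; limma adjusted p = 0.881), so a mean up to 1.25-fold higher or down to 0.931 of wild type remained within the interval. It was 0.04 without Ahr-KO array 1, 0.17 without Ahr-KO array 2 and 0.06 without wild-type array 3, and 0.09 without both arrays with high Ttr. The SDs were 0.13 in Ahr-KO and 0.10 in wild type.

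The change of GluN2B-rich for GluN2A-rich receptors is a known step of synaptic maturation in the forebrain, so the difference Grin2a minus Grin2b was taken within each array. Probe sets differ in how strongly they bind, so its size says nothing about which RNA is more abundant, and only the comparison between genotypes can be read. It was -0.88, -1.17 and -1.05 log2 in Ahr-KO, against -0.90, -0.99 and -1.09 in wild type. The genotypes overlapped throughout. The means were -1.03 ± 0.14 and -0.99 ± 0.09 (SD, n = 3 each), a difference of -0.04 log2 that is smaller than either SD. It ran from -0.12 without Ahr-KO array 1 to 0.02 without Ahr-KO array 2, so its sign depended on single arrays. Without both arrays with high Ttr it was -0.12.

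**Figure D2:**
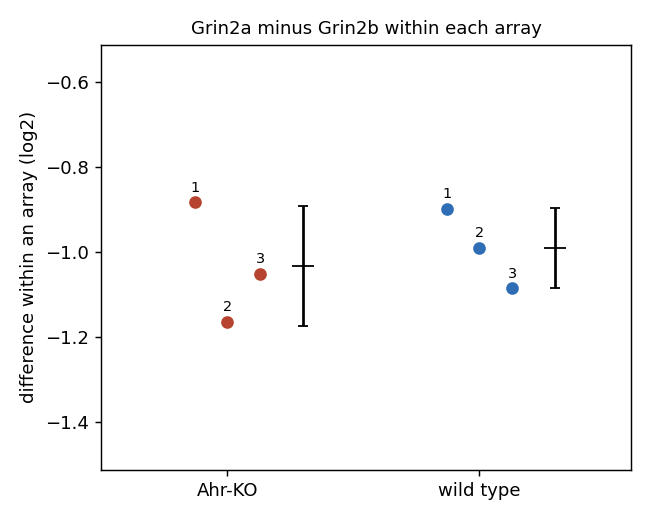
Within-array difference of log2 signal, Grin2a minus Grin2b, for Ahr-KO (left) and wild-type (right) arrays. Points are arrays with their mouse number and bars the mean ± SD (n = 3), and the genotypes overlap.

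Grin2c and Grin2d encode the less common GluN2 subunits, GluN2C, best known from cerebellar granule cells, and GluN2D, which prevails early in development and in adult forebrain is found in interneurons. Grin2c read 6.65, 7.16 and 6.73 log2 in Ahr-KO, against 7.28, 6.999 and 7.002 in wild type. Ahr-KO arrays 1 and 3 lay below every wild-type array, and Ahr-KO array 2 lay above 2 of them. The difference was -0.25 ± 0.15 (SE; 95% interval -0.58 to 0.08), 1.19-fold lower in mean (limma unadjusted p = 0.124, adjusted p = 0.829). It was the largest in size and the widest interval among the 6 subunits. Its spread over the 6 arrays (SD 0.25) exceeded that of 93.8% of genes.

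Single arrays moved the Grin2c value strongly. It was -0.41 without Ahr-KO array 2 (unadjusted p = 0.00732, adjusted p = 0.662), -0.15 without Ahr-KO array 1 and -0.15 without wild-type array 1, and -0.20 without both arrays with high Ttr. The second Grin2c probe set, dim at a mean of 3.95 log2, read 3.88, 3.63 and 3.94 in Ahr-KO, against 3.97, 4.08 and 4.22 in wild type. Its arrays did not overlap, as in 11.9% of all genes (5.75% lower in Ahr-KO). It differed by -0.27 ± 0.11 (SE; limma over all probe sets, unadjusted p = 0.0335, adjusted p = 0.809), where 2.56% of probe sets were lower at that unadjusted level. On Ahr-KO array 2 the probe sets went opposite ways, the brighter one high and the dimmer one at its lowest. Their mean differed by -0.26 ± 0.07 (SE; unadjusted p = 0.00723, adjusted p = 0.778).

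Markers of astrocytes, a glial type, were set beside Grin2c. Their mean centred level ran from -0.10 to 0.01 on the Ahr-KO arrays and from 0.01 to 0.04 on the wild-type arrays, with 0 of 10 higher and 1 lower at an unadjusted p under 0.05, beside 3.53% and 2.65% of all genes. That gene was Fgfr3, a fibroblast growth factor receptor. By array the level was -0.10, 0.01 and 0.00035 in Ahr-KO, against 0.0078, 0.04 and 0.04 in wild type. Ahr-KO array 1 was lowest for these markers and for Grin2c, but Ahr-KO array 3 was low in Grin2c without a low marker level, and wild-type array 1 had the highest Grin2c and the lowest marker level of its genotype. Ahr-KO array 1 was also lowest for oligodendrocyte lineage (-0.28) and microglia (-0.18) markers. The part of these markers in the Grin2c difference was not tested.

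Grin2d read 7.42, 7.44 and 7.35 log2 in Ahr-KO, against 7.46, 7.55 and 7.42 in wild type. Wild-type array 3 had the same value as Ahr-KO array 1, and the genotypes overlapped. The difference was -0.08 ± 0.07 (SE; 95% interval -0.25 to 0.09; limma adjusted p = 0.890). It was -0.04 without wild-type array 2, -0.05 without Ahr-KO array 3 and -0.05 without both arrays with high Ttr. Grin2d varied little, with an SD of 0.07 over the 6 arrays that was at or above that of only 13.2% of genes.

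The second Grin2d probe set had the opposite sign. It averaged 6.65 ± 0.29 log2 in Ahr-KO and 6.49 ± 0.10 in wild type (SD, n = 3 each), a difference of 0.15 ± 0.14 (SE). Ahr-KO array 2 read 6.95 there and the other 5 arrays 6.38 to 6.60. The mean of both probe sets differed by 0.04, so the direction of Grin2d was not settled. Interneuron markers ran from -0.03 to 0.08 in mean centred level in Ahr-KO and from -0.06 to 0.02 in wild type, with 1 of 10 higher (Lhx6) and 1 lower (Pvalb) at an unadjusted p under 0.05, beside 3.53% and 2.65% of all genes.

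Grin3a and Grin3b encode the glycine-binding subunits GluN3A and GluN3B, which lower the calcium entry and magnesium block of the channels they join. GluN3A is prominent in the immature forebrain and GluN3B in motor neurons. Grin3a read 8.71, 8.59 and 8.78 log2 in Ahr-KO, against 8.82, 8.83 and 8.91 in wild type. All 3 Ahr-KO values lay below the lowest wild-type value, by a gap smaller than the spread within Ahr-KO (SD 0.10 in Ahr-KO and 0.05 in wild type). The difference was -0.16 ± 0.08 (SE; 95% interval -0.34 to 0.02), 1.12-fold lower in mean (limma unadjusted p = 0.0809, adjusted p = 0.817). It kept its sign without any single array, running from -0.20 without Ahr-KO array 3 to -0.11 without Ahr-KO array 2. Without both arrays with high Ttr it was -0.18.

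Grin3b read 5.44, 5.54 and 5.36 log2 in Ahr-KO, against 5.70, 5.20 and 5.62 in wild type. The wild-type arrays lay on both sides of all Ahr-KO arrays. The difference was -0.06 ± 0.13 (SE; 95% interval -0.36 to 0.24; limma adjusted p = 0.964). It ran from -0.21 without wild-type array 2 to 0.04 without wild-type array 1, and was -0.02 without Ahr-KO array 3. Without both arrays with high Ttr it was -0.21 (unadjusted p = 0.0933). Grin3b was the one measured subunit with a mean below the median gene level, at the 35.6th percentile of genes, and no detection call was used here. The other 5 lay at the 56.1st (Grin2c), 62.7th (Grin2d), 81.7th (Grin3a), 96.7th (Grin2a) and 99.1st (Grin2b) percentile. These ranks reflect probe binding as well as RNA, so they do not order the subunits by amount.

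**Figure D3:**
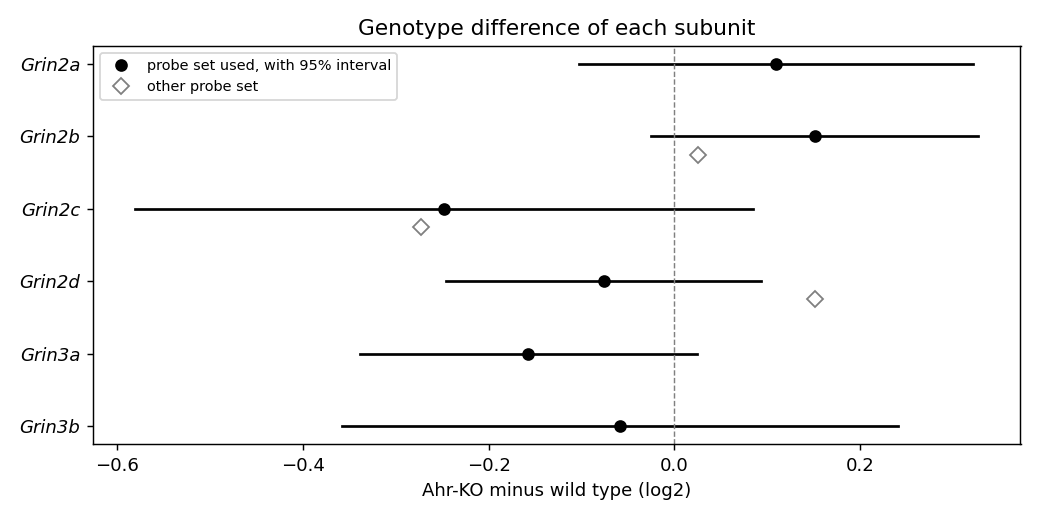
Log2 difference of each subunit (Ahr-KO minus wild type) with the 95% interval of limma (filled points, lines) and the difference of the other probe set where there is one (open diamonds). All 6 intervals include 0, and the second probe set of Grin2d lies on the other side of 0.

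For each subunit the genes with the most similar pattern were found, as the smallest root mean square difference of centred log2 values over the 6 arrays, among genes that were no dimmer than the median and varied at least as much. The candidates numbered from 294 (Grin2c) to 8157 (Grin2d), so with 6 arrays close matches arise readily. For Grin2b these were Zfp609 (0.02 log2), a zinc finger protein, and Utp4 (0.03), a factor of ribosomal RNA processing. For Grin3a they were Ccdc159 (0.02) and the splicing factor Srsf5 (0.03), and for Grin2a the TGF-beta coreceptor Tgfbr3 (0.03) and the adenylate kinase Ak5 (0.03). For Grin2d they were Nudt22 (0.02) and the G protein subunit Gnb5 (0.02). For Grin2c they were the adenylosuccinate synthase Adssl1 (0.04) and the corticotropin-releasing hormone receptor Crhr1 (0.08), and for Grin3b Dennd3 (0.05) and Emp3 (0.06). The differences are not scaled to spread, and Grin2c and Grin3b had the largest SDs among the measured subunits (0.25 and 0.18). None of the similar genes passed an adjusted p of 0.05 with limma, beside 0% of all genes.

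None of the listed genes around the receptor passed the threshold either. There were 5 lists, 4 of genes that hold, regulate or supply NMDA receptors and 1 of the other ionotropic glutamate receptor subunits. Of their 98 genes 86 were measured, 0 passed an adjusted p of 0.05 (limma), and 2 were higher and 3 lower at an unadjusted p under 0.05. These 5 genes are 5.81% of those measured, beside 6.18% of all genes. The median difference over the lists was 0.0087 log2, beside 0.0019 over all genes. Where the variance prior followed signal intensity, 12 of the 86 (14.0%) were at that unadjusted level, beside 6.52% of all genes under the same fit. The lists hold mostly bright genes, with 8 of 86 below the median level, beside 11090 of all 22180 genes. The share among bright genes alone was not computed under that fit, so 14.0% and 6.52% describe unlike sets of genes. The part of brightness in this was not tested.

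Scaffold, anchoring and transport genes had 12 of 24 means higher in Ahr-KO (50.7% over all genes) and a median difference of -0.0056 log2. At an unadjusted p under 0.05, 0 were higher and 1 lower, beside 3.53% and 2.65% of all genes. The one was Dlg1, the scaffold SAP97, which read 9.37, 9.66 and 9.51 log2 in Ahr-KO, against 9.89, 9.61 and 9.90 in wild type (-0.29 ± 0.11, SE; limma unadjusted p = 0.0287, adjusted p = 0.797). Ahr-KO array 2 lay above wild-type array 2. Apba1, an adaptor of the motor complex that carries GluN2B along dendrites, had lower values on all Ahr-KO arrays (9.30, 9.35 and 9.27, against 9.45, 9.42 and 9.51; -0.15 ± 0.07, SE). Akap5, which anchors kinases and calcineurin at the synapse, was also lower on every Ahr-KO array (9.88, 9.91 and 9.90, against 10.04, 9.96 and 10.12; -0.14 ± 0.07). In this list 3 of 24 genes did not overlap (12.5%), beside 11.9% of all genes. Of these, 1 was higher and 2 lower in Ahr-KO, beside 6.18% and 5.75% of all genes.

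Among 21 measured kinase, phosphatase and calcium signalling genes 9 means were higher in Ahr-KO (42.9%, beside 50.7% of all genes). The median difference was -0.0041 log2. At an unadjusted p under 0.05, 0 were higher and 1 lower, beside 3.53% and 2.65% of all genes. Camk2d, the delta subunit of calcium/calmodulin-dependent kinase II, read 7.76, 8.52 and 8.13 log2 in Ahr-KO, against 8.76, 8.27 and 8.93 in wild type (-0.52 ± 0.22, SE; limma unadjusted p = 0.0415, adjusted p = 0.806). Ahr-KO array 2 exceeded wild-type array 2. Prkaca, the catalytic subunit of protein kinase A, was higher on every Ahr-KO array (11.07, 10.99 and 11.10, against 10.92, 10.93 and 10.84; 0.16 ± 0.07, SE). Ptk2b, the kinase Pyk2 that acts upstream of Src at the receptor, differed by 0.13 ± 0.09 with overlapping arrays. In this list 3 of 21 genes did not overlap (14.3%), beside 11.9% of all genes. Of these, 3 were higher and 0 lower in Ahr-KO, beside 6.18% and 5.75% of all genes.

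Genes that supply or remove glycine and D-serine, listed with Ddo, had 11 of 16 means higher in Ahr-KO (68.8%, beside 50.7% of all genes). The list mixes supply with removal, so this share gives no direction for the co-agonists. Its median difference was 0.06 log2, beside 0.0019 over all genes. At an unadjusted p under 0.05, 2 were higher and 0 lower, beside 3.53% and 2.65% of all genes. Ddo, which oxidises D-aspartate, a further agonist, read 6.56, 6.33 and 6.52 log2 in Ahr-KO, against 6.14, 6.15 and 6.34 in wild type (0.26 ± 0.09, SE; limma unadjusted p = 0.0237, adjusted p = 0.794). Only Ahr-KO array 2 and wild-type array 3 overlapped. Gldc, the glycine decarboxylase of the glycine cleavage system, read 8.63, 8.84 and 8.62 in Ahr-KO, against 8.51, 8.50 and 8.41 in wild type (0.23 ± 0.08, SE; unadjusted p = 0.0274), with no overlap. In this list 2 of 16 genes did not overlap (12.5%), beside 11.9% of all genes. Of these, 2 were higher and 0 lower in Ahr-KO, beside 6.18% and 5.75% of all genes. Shmt2, the mitochondrial enzyme that interconverts serine and glycine, differed by 0.20 ± 0.11. Ddo averaged below the median gene level, as did 5 of the 16 genes in all.

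Of 15 measured membrane partners 8 means were higher in Ahr-KO (50.7% over all genes), and the median difference was 0.0011 log2. At an unadjusted p under 0.05 there were 0 in either direction, beside 6.18% of all genes. Reln, the secreted ligand whose receptors potentiate NMDA currents, read 8.63, 8.80 and 8.57 in Ahr-KO, against 9.13, 8.67 and 9.12 in wild type (-0.30 ± 0.13, SE). Wild-type array 2 lay within the Ahr-KO range. The nicotinic receptor subunit Chrna7 differed by 0.28 ± 0.14 and the neuropeptide Adcyap1 by 0.17 ± 0.13, both with overlapping arrays. In this list 1 of 15 genes did not overlap (6.67%), beside 11.9% of all genes.

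The other ionotropic glutamate receptor subunits, for AMPA, kainate and delta receptors, had 7 of 10 means higher in Ahr-KO (50.7% over all genes) and a median difference of 0.01 log2, against -0.07 for the NMDA subunits. No test of a difference between these groups was made. At an unadjusted p under 0.05, 0 were higher and 1 lower, beside 3.53% and 2.65% of all genes. The lower one was the AMPA subunit Gria4 (9.48, 9.52 and 9.53 in Ahr-KO, against 9.75, 9.57 and 9.92 in wild type; limma adjusted p = 0.805). The kainate subunit Grik1 differed by -0.23 ± 0.14 (SE) and the delta subunit Grid1 by 0.13 ± 0.08. In this list 2 of 10 genes did not overlap (20%), beside 11.9% of all genes. Of these, 1 was higher (Grid1) and 1 lower (Gria4), beside 6.18% and 5.75% of all genes.

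**Figure D4:**
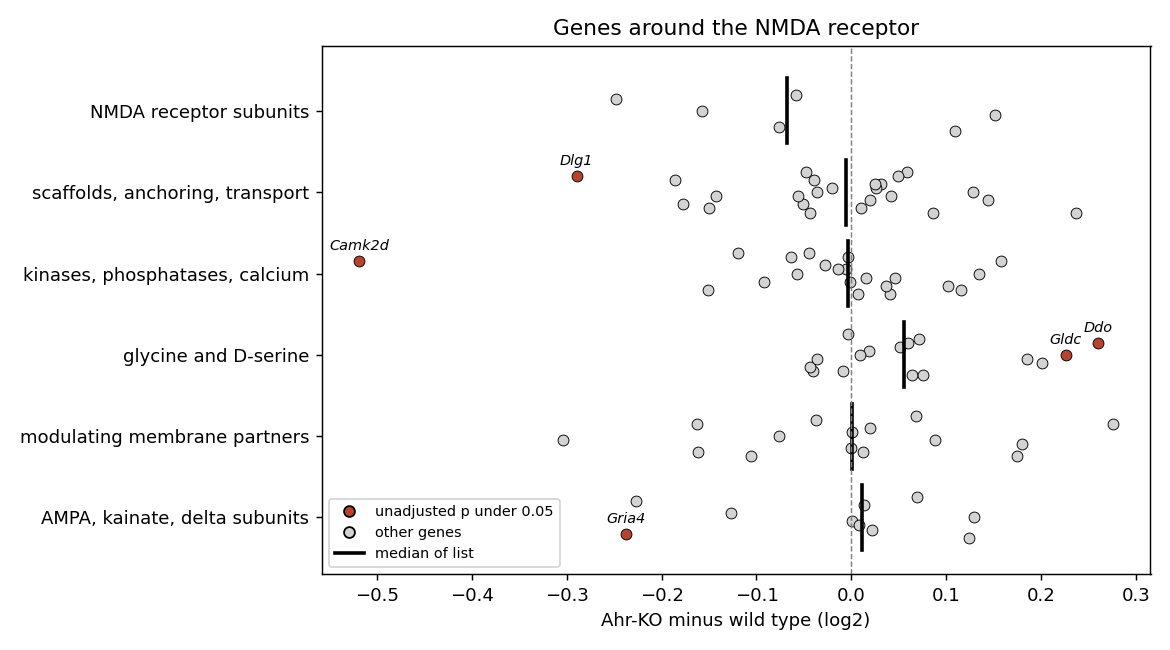
Log2 difference (Ahr-KO minus wild type) of every measured gene of 6 lists, 1 point per gene with small vertical offsets for legibility. Black bars are list medians and named red points have an unadjusted p under 0.05 (limma), 5 genes in all and none of them an NMDA receptor subunit.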

How the data were processed

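The authors deposited a log2 signal for each probe set on each array, made with RMA in Affymetrix Expression Console, per the submitters' processing notes. RMA normalizes all arrays together, removes overall shifts and tends to compress fold changes. Per the labels' protocols, Trizol was used for extraction and an Affymetrix GeneChip WT PLUS kit for labelling. The sources used here name no annotation version or genome build, nor the exons a probe set reads. No scanner values, dates or detection calls were used, so batches were not examined, and the number of arrays limits the precision.

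Of 41345 rows, 23521 had 1 symbol, 1814 several and 16010 none. Symbols were updated through Entrez IDs (23328 rows). The brightest probe set stood for each of 22180 genes, without a filter on dim signals. The genotype test was that of limma 3.58.1 under R 4.3.3 (lmFit, eBayes without trend, 4 residual degrees of freedom, two-sided, Benjamini-Hochberg over all genes). Differences are Ahr-KO minus wild type, and the mean centred level of a list is the mean of log2 values minus each gene's mean over 6 arrays. The members and lists were chosen with earlier results of these data known. Besides the subunits, Ahr and Ttr, the text names the 3 genes of each pathway list with the lowest unadjusted p, 2 genes per subunit with the most similar pattern, and markers (Tdo2, Prox1, Fgfr3, Lhx6, Pvalb) chosen after their values were seen. Similar-pattern genes leave out predicted genes, small RNAs, odorant and vomeronasal receptors, and every symbol that begins with Rn, whatever its type. Each array has its own mouse, per the labels. They do not say what the mouse numbers stand for, so samples were not paired in the main test. Alternatives changed the variance model, normalization, dim filter, probe set rule, block, arrays and choroid plexus covariate. Figures used matplotlib 3.10.9.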

Additional observations from a re-analysis of the deposited data

How the results depend on the processing

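In 15 alternatives no measured subunit passed an adjusted p of 0.05. At an unadjusted p under 0.05 there was 1 subunit with an intensity trend (Grin2b), 1 with the mean of all probe sets (Grin2c), and 0 to 1 when single arrays were left out, against 0 in the main analysis. The difference changed sign for Grin2d with the mean of all probe sets (0.037) and for Grin3b when single arrays were left out (-0.21 to 0.036). The causes were not tested. Grin2a and Grin2b stayed higher and Grin2c and Grin3a lower in Ahr-KO in all 15. The intensity trend, the replicate block and the dim filter leave the difference itself unchanged, so its sign could not change there. The same holds for the mean of all probe sets for Grin2a and Grin3a, which have 1 probe set each. Grin3b, dim, had no value among genes at or above the median level. Grin2a minus Grin2b ran from -0.12 to 0.02 and moved by less than 1 SD. Genes of the 5 pathway lists at an unadjusted p under 0.05 numbered 5, against 12 with an intensity trend, 8 with array weights, 3 with the replicate block, 8 without the Ahr-KO 1 and wild type 2 arrays, both high in choroid plexus genes, 9 with the choroid plexus covariate and 2 to 9 when single arrays were left out. Of all genes, 6.18% were at that unadjusted level in the main analysis and 6.52% with the intensity trend. The share was not computed for the other alternatives, so their counts of subunits and list genes are not set against it. All genes past an adjusted p of 0.05 numbered 0, and 2 with the intensity trend. Deviations of same-numbered mice correlated across genes at -0.15, -0.22 and 0.05, 1 of 3 Ahr-KO arrays correlated best with its own number, and with the replicate block 0 subunits passed either threshold.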
